A study of Mus musculus with 9 samples.

Results

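The p53 target genes analysed here are Trp53, which encodes the tumour suppressor p53, and 33 genes that p53 is known to regulate. They were taken by symbol from a list of 34 genes in a count table of 38293 genes, and all 34 were present and passed the filter on low counts. Ventricular RNA was compared between 5 Arid1a f/f control libraries and 4 aMHC-Cre;Arid1a f/f (cKO) libraries, all from mice at postnatal day 7. Both groups carry floxed Arid1a, the gene of a subunit through which SWI/SNF remodelling complexes contact DNA. The cKO group also carries Cre under the promoter of a cardiac myosin heavy chain, so that recombination is directed to cardiomyocytes, and the controls lack Cre, so an effect of Cre itself cannot be told apart from the deletion. The RNA came from ventricular tissue, which also holds fibroblasts, endothelial cells and other cells that keep Arid1a. A lower level in such tissue can reflect fewer cells of a type or less RNA per cell, and these cannot be told apart here.

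p53 is a transcription factor that is kept scarce by MDM2, a ubiquitin ligase whose own gene p53 switches on. After DNA damage or other stress p53 is stabilised and activates genes that halt the cell cycle, trigger apoptosis, repair DNA and adjust metabolism. Since p53 is controlled mainly through protein stability, the amount of its mRNA need not follow its activity.

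Total counts per library lay between 31011055 and 40073801, and single members had between 11 and 22648 counts in a library. Arid1a was measured at 142, 128, 133, 147 and 148 CPM (counts per 1e6, scaled by library) across control replicates 1 to 5 and at 108, 113, 100 and 104 CPM across cKO replicates 1 to 4, which is -0.39 ± 0.06 on the log2 scale (SE, adjusted p = 0.00132 in the quasi-likelihood test of edgeR). The libraries formed 2 sets that the labels do not describe. Rps3a3, a near-copy of the ribosomal protein gene Rps3a1, was at 0.345 to 0.521 CPM in 2 control libraries (replicates 1 and 2) and 3 cKO libraries (1, 2 and 3), and at 99.7 to 112 CPM in the other 3 controls and cKO replicate 4. The genotype comparison is therefore given over all 9 libraries and, where the sets matter, within each set. The 8 cardiomyocyte markers summed to 45970 to 49960 CPM in cKO and 49700 to 58140 CPM in control libraries, and the 8 lymphocyte markers to 4.77 to 6.65 and 4.44 to 14.0 CPM.

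The p53 target genes moved in both directions. At an adjusted p under 0.05, 10 of the 34 rose in cKO ventricles and 3 fell, which is 38.2% of the members. Over all 15318 genes tested the share was 16.3%, with 8.25% higher and 8.03% lower. The members were chosen with earlier results of these data known, so the difference between these shares is a description only. The genes that rose were Plk2, Plk3, Pvt1, Psrc1, Gtse1, Bax, Phlda3, Tigar, Sesn1 and Ephx1, and those that fell were Gadd45a, Eda2r and Sulf2. With a fold change over 1.5 required as well, 7 members were called (20.6%), against 6.72% of all genes. Of the 7, Pvt1, Psrc1, Gtse1, Phlda3 and Ephx1 were higher, where 4.01% of all genes were, and Gadd45a and Eda2r were lower, where 2.72% were. Without control replicate 5 there were 4 calls, Gadd45a, Pvt1, Gtse1 and Eda2r. The median log2 fold change was 0.15 over the members and 0.01 over all genes tested, with 22 members above 0 and 12 below. In 11 members (32.4%) the 2 groups did not overlap, 8 with every cKO library above every control and 3 with every cKO library below, against 16.7% of all genes. DESeq2 passed 16 members, the same 13 and also Ckap2, Dcxr and Xpc. The share of all genes that DESeq2 passed is not given here, so its counts cannot be set against 16.3%.

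**Figure D1:**
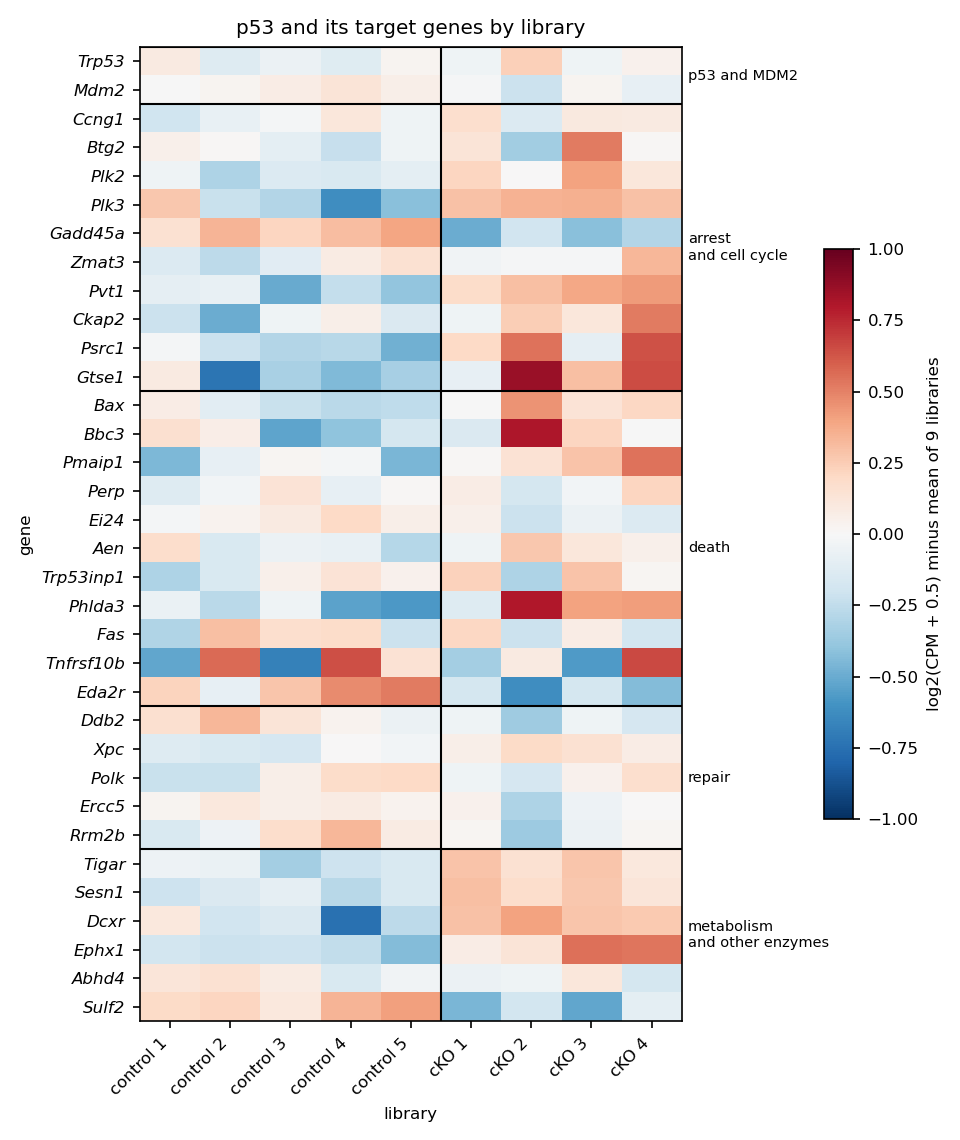
Levels of Trp53 and its target genes in each library, as log2(CPM + 0.5) minus the mean of the gene over the 9 libraries (red higher, blue lower), with genes in rows by role and libraries in columns. Tigar and Sesn1 are red in all 4 cKO libraries and Gadd45a and Sulf2 are blue there.

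The counts by role stand beside 8.25% of all genes higher and 8.03% lower. In the arrest and cell cycle group 5 of 10 genes rose and 1 fell, with a median log2 fold change of 0.36. Among the metabolic and other enzymes 3 of 6 rose and 1 fell, with a median of 0.38. In the death group 2 of 11 rose and 1 fell, with a median of 0.12. Among the 5 repair genes none passed in the quasi-likelihood test of edgeR, 2 of them had an unadjusted p under 0.05 and DESeq2 passed 1, and the median was -0.13. Neither Trp53 nor Mdm2 passed by either tool, and neither had an unadjusted p under 0.05 by edgeR.

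**Figure D2:**
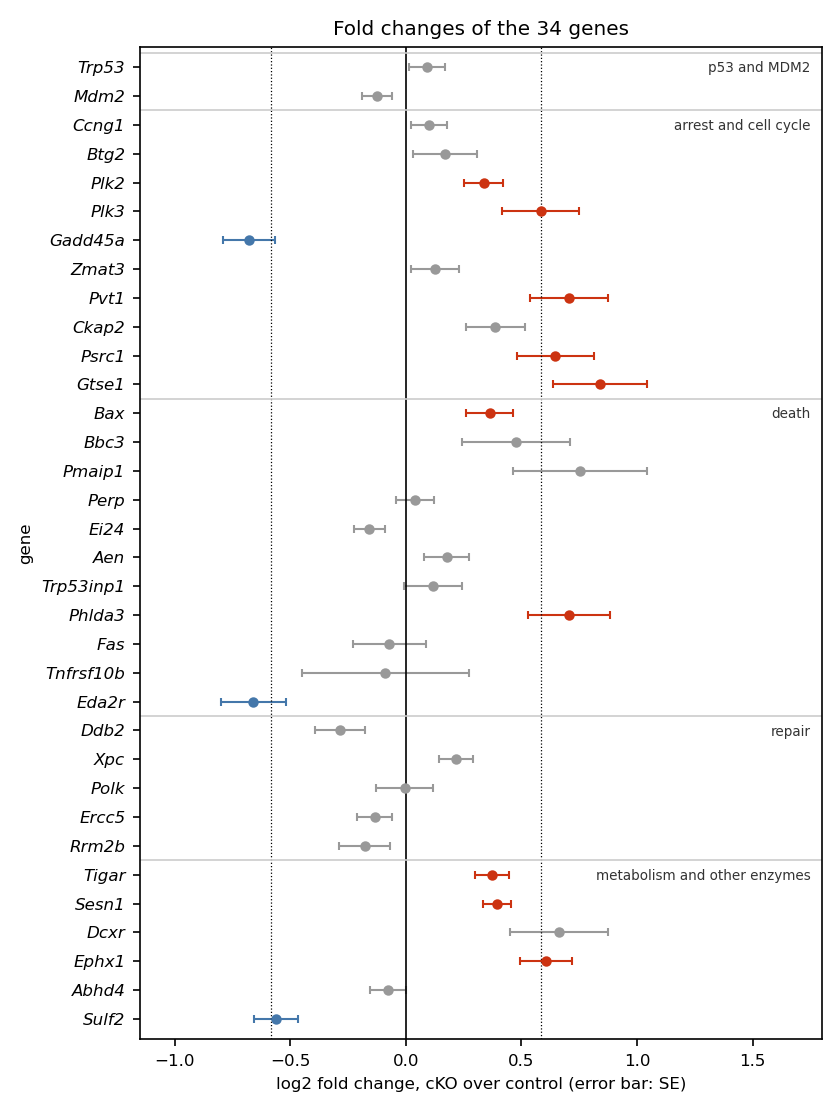
Log2 fold changes of the 34 genes, cKO over control, with their SE as error bars, ordered by role, red where a gene rose and blue where it fell at an adjusted p under 0.05, grey otherwise. Dotted lines mark a fold change of 1.5 in either direction, and Plk3 lies on the upper line at 1.499-fold.

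p53 binds DNA as a tetramer at pairs of a 10-base consensus unit, so the sequence around the transcription start of each member was searched for such pairs. RefSeq windows of GRCm38.p6, from 250 bases before to 50 bases after a start, were matched by symbol for 25 of the 34 members. Of their 34 windows, 27 ended within a GENCODE transcript of the gene, among them the 6 shown. The exact p53 consensus unit occurred in the windows of 12 of these 25 genes (48.0%) and in 9.55% of 27025 mouse genes. A pair of units with at least 18 of 20 bases matched and up to 13 bases between them occurred in 6 of 25 (24.0%) and in 4.71% of all genes. The minimum of 18 was chosen after the matches had been seen. The 6 windows shown are all those that reached this minimum, and the capitals mark the paired units, 5′ to 3′ on the strand of the gene. The windows are Ccng1 (chr11:40755237-40755536, minus strand, 19 matched bases, spacer 0), Gtse1 (chr15:85859696-85859995, plus strand, 19 matched bases, spacer 0), Ckap2 (chr8:22185770-22186069, minus strand, 18 matched bases, spacer 0), Bax (chr7:45466849-45467148, minus strand, 18 matched bases, spacer 5), Sesn1 (chr10:41887189-41887488, plus strand, 18 matched bases, spacer 3) and Gadd45a (chr6:67037358-67037657, minus strand, 18 matched bases, spacer 11).
Ccng1: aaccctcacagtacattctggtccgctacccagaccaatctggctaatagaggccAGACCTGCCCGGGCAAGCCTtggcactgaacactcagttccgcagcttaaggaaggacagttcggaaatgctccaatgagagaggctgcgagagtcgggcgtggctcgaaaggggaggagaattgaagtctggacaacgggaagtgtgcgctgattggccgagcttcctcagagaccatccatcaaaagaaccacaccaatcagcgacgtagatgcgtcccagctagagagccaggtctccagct
Gtse1: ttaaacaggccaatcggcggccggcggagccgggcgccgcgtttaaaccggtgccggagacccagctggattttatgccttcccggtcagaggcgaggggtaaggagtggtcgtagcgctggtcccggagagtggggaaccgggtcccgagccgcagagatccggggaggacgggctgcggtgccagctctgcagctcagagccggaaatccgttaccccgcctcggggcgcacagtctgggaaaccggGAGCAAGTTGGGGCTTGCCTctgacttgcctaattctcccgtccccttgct
Ckap2: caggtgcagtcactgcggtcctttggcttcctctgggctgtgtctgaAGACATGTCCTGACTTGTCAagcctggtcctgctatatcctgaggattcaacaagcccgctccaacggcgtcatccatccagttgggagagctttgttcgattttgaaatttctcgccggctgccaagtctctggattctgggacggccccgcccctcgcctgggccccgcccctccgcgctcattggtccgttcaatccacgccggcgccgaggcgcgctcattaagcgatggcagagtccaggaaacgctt
Bax: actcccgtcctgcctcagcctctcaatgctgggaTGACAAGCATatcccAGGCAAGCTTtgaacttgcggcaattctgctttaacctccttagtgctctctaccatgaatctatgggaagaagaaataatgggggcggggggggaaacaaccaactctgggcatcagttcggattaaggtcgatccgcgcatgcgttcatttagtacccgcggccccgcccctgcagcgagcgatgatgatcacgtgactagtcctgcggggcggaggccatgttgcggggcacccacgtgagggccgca
Sesn1: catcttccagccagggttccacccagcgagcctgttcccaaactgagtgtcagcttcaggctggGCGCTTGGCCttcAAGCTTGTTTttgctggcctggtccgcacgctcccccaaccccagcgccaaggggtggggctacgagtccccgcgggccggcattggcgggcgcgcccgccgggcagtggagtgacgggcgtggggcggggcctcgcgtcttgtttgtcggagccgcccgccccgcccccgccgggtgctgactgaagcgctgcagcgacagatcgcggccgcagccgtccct
Gadd45a: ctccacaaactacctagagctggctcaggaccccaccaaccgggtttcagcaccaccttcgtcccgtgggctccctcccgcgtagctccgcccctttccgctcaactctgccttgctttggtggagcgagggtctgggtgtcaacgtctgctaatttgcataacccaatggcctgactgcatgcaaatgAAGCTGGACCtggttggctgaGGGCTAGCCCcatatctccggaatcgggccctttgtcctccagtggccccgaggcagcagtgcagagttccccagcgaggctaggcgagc

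The pairs began 195 bases before the start in Ccng1, 203 in Ckap2, 216 in Bax, 186 in Sesn1, 61 in Gadd45a and 1 in Gtse1. Of these 6 genes, Gtse1, Bax and Sesn1 rose, Gadd45a fell, and Ccng1 and Ckap2 did not pass the test. A match is a description of the letters only. The CCAAT box, counted on both strands, was present in 18 of the 25 genes (72.0%) and in 41.1% of all genes. The cell cycle homology element, searched as TTTGAA and TTCGAA on both strands, was present in 6 of 25 (24.0%) and in 21.7% of all genes. The 6 were Aen, Bax, Ckap2, Ercc5, Fas and Psrc1.

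Trp53 itself and its inhibitor were close to their control levels. Trp53 (GRCm38 chromosome 11, 69580359 to 69591873) was at 56.4, 48.6, 50.9, 48.9 and 54.0 CPM across control replicates 1 to 5 and at 51.6, 62.7, 51.5 and 54.7 CPM across cKO replicates 1 to 4. The groups overlapped, with cKO replicate 2 the highest library, and the change was 0.09 ± 0.08 on the log2 scale (SE, adjusted p = 0.469 in the quasi-likelihood test of edgeR). Mdm2, the ubiquitin ligase of p53 and one of its best known targets, was at 73.6 ± 2.52 CPM (SD, n = 5) in control and 67.5 ± 5.01 CPM (SD, n = 4) in cKO libraries, or -0.12 ± 0.07 on the log2 scale (SE, adjusted p = 0.226 in edgeR). Mdm4, a relative of MDM2 that masks the activation domain of p53, differed by log2 -0.06 ± 0.08 (SE, adjusted p = 0.69 in edgeR). Of 24 regulators of p53 that were listed, Mdm4 among them, 23 were tested. None passed in the quasi-likelihood test of edgeR, 2 had an unadjusted p under 0.05 and DESeq2 passed 1.

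The arrest and cell cycle group held the member with the largest log2 fold change, Gtse1. Gtse1 (ENSMUSG00000022385, chromosome 15, 85859745 to 85876573) encodes a microtubule-associated protein of the G2 and M phases that restrains p53. It was at 11.5, 6.29, 8.48, 7.77 and 8.44 CPM across control replicates 1 to 5 and at 10.1, 20, 13.3 and 17.2 CPM across cKO replicates 1 to 4. The groups overlapped at control replicate 1 and cKO replicate 1, and Gtse1 rose 1.79-fold (log2 0.84 ± 0.20, SE, adjusted p = 0.0159 in edgeR). Psrc1 (ENSMUSG00000068744, chromosome 3, 108383839 to 108388231), which encodes a spindle microtubule protein, was at 6.02, 5.21, 4.90, 4.97 and 4.24 CPM in control and 7.09, 9.15, 5.71 and 9.78 CPM over the cKO replicates. Only cKO replicate 3 lay within the control range, and the rise was 1.57-fold (log2 0.65 ± 0.17, SE, adjusted p = 0.0196 in edgeR). Psrc1 no longer passed without control replicate 5, without cKO replicate 2 or without cKO replicate 4. Ckap2, which encodes another spindle protein, was at 28.3 ± 4.06 CPM (SD, n = 5) in control and 36.9 ± 6.32 CPM (SD, n = 4) in cKO libraries. It did not pass by edgeR (log2 0.39 ± 0.13, SE, adjusted p = 0.0586) and passed by DESeq2 (adjusted p = 0.0322). A model that also held a term for the library sets passed it in edgeR (log2 0.51 ± 0.09, SE, adjusted p = 0.00174).

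Gtse1, Psrc1 and Ckap2 are also mitotic genes, and their order among libraries is given here beside that of mitosis markers. The 16 mitosis markers summed to 756, 651, 821, 905 and 745 CPM in control replicates 1 to 5 and to 783, 1068, 877 and 1242 CPM across cKO replicates 1 to 4. The cKO replicates 2 and 4 were the highest of all 9 libraries in this sum and in each of the 3 genes. Fitted log2 fold changes were above 0 for all 16 markers with a median of 0.38. Of the 16, 3 passed by edgeR (18.8%, beside 16.3% of all genes), namely Cdk1, Plk1 and Cenpe, with log2 fold changes of 0.40, 0.67 and 0.67, and 13 did not. At an unadjusted p under 0.05 there were 12, and DESeq2 passed 5. The part of mitotic cells in the change of these p53 targets was not tested.

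**Figure D3:**
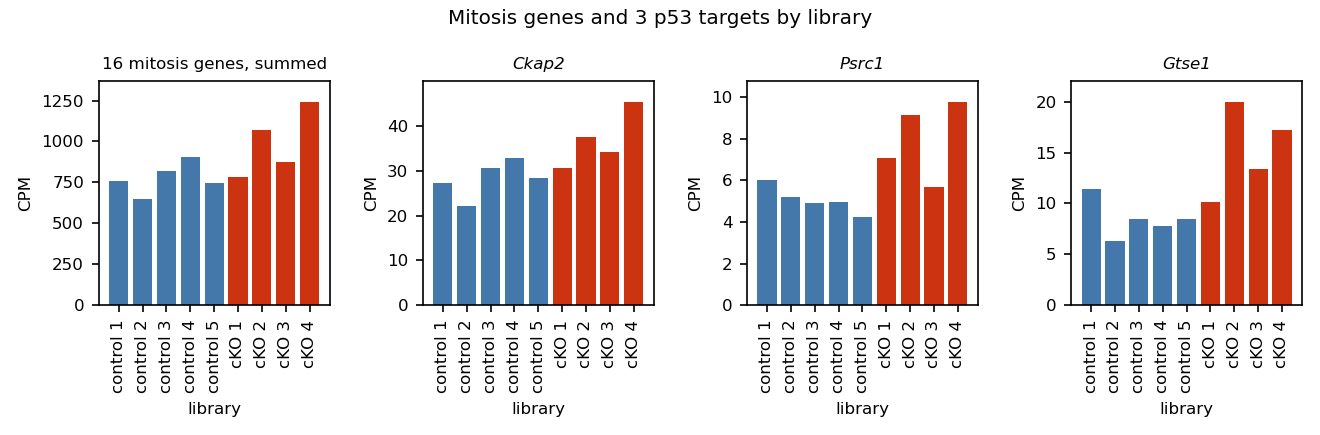
CPM in each library (control blue, cKO red) for 16 mitosis markers summed and for Ckap2, Psrc1 and Gtse1, 1 bar per library and axes from 0. In all 4 panels the cKO replicates 2 and 4 are the tallest bars.

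Of the other genes in this group, Pvt1, Plk2 and Plk3 rose and Gadd45a fell. Pvt1 (ENSMUSG00000097039, chromosome 15, 62037986 to 62378096), a long non-coding RNA beside Myc, was at 2.08, 2.11, 1.44, 1.82 and 1.58 CPM in control and 2.61, 2.89, 3.10 and 3.20 CPM over the cKO replicates. Every cKO library lay above every control library, and the rise was 1.63-fold (log2 0.71 ± 0.17, SE, adjusted p = 0.0141 in edgeR). Plk3, a stress-responsive polo-like kinase, was at 8.52, 5.91, 5.6, 4.37 and 5.11 CPM in control and 8.65, 9.04, 9.07 and 8.64 CPM over the cKO replicates. The cKO libraries lay within a narrow range just above control replicate 1, which stood above the other controls. Plk3 rose (log2 0.58 ± 0.17, SE, adjusted p = 0.0322 in edgeR), below the fold of 1.5. It passed in 1 of the 9 fits that leave out a library, the fit without control replicate 1 (log2 0.75, adjusted p = 0.00204 in edgeR), and in none of the other 8. Plk2, a kinase of the same family, was at 106 ± 7.18 CPM (SD, n = 5) in control and 133 ± 16.04 CPM (SD, n = 4) in cKO libraries, a 1.26-fold rise with no overlap (adjusted p = 0.0159 in edgeR) that was lost when cKO replicate 3 was left out (adjusted p = 0.0525).

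Gadd45a (ENSMUSG00000036390, chromosome 6, 67035096 to 67037457), a small stress sensor that binds PCNA and cyclin B1 complexes, went the opposite way. It was at 7.25, 8.34, 7.59, 8.18 and 8.67 CPM across control replicates 1 to 5 and at 4.45, 5.62, 4.72 and 5.21 CPM across cKO replicates 1 to 4. All cKO libraries lay below all controls, at 0.625 times the control level (log2 -0.68 ± 0.11, SE, adjusted p = 0.00177 in edgeR), and the gene passed in all 9 fits without a library. Its exons share 337 bases with E230016M11Rik on the opposite strand. The strand setting of the counting is not stated, so reads of the 2 genes may not be told apart.

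Ccng1, Btg2 and Zmat3 did not pass with genotype as the only term. Ccng1, which encodes cyclin G1 and is among the most p53-responsive genes in many tissues, was at 501 ± 39.2 CPM (SD, n = 5) in control and 537 ± 48.0 CPM (SD, n = 4) in cKO libraries (log2 0.10 ± 0.08, SE, adjusted p = 0.431 in edgeR). Btg2, an anti-proliferative cofactor of mRNA deadenylation, ranged from 65.1 to 79.1 CPM in control and from 60.0 to 109 CPM in cKO libraries, so that cKO replicates held both the lowest and the highest level. Zmat3, an RNA-binding protein, differed by log2 0.13 ± 0.10 (SE, adjusted p = 0.459 in edgeR), and passed once the library sets were in the model (log2 0.22 ± 0.07, SE, adjusted p = 0.0474 in edgeR).

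Plk2, Plk3 and Btg2 also respond to growth factors, as immediate early genes do. Of 12 immediate early genes listed, Egr1 and Egr2 rose, with log2 fold changes of 1.18 and 1.999, and Jun fell with -0.35, so that 25.0% passed, beside 16.3% of all genes. The 12 genes summed to 225 to 404 CPM in control and 273 to 409 CPM in cKO libraries. cKO replicate 3 was the highest library for Egr1 at 98.0 CPM, for Egr2 at 6.17 CPM, for Btg2 at 109 CPM and for Plk2 at 154 CPM. Not all of the 12 had this order. Fos and Fosb were also highest there, but Jun was highest in control replicate 1 and Junb in cKO replicate 2. The part of such a response in the levels of the 3 targets was not tested.

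**Figure D4:**
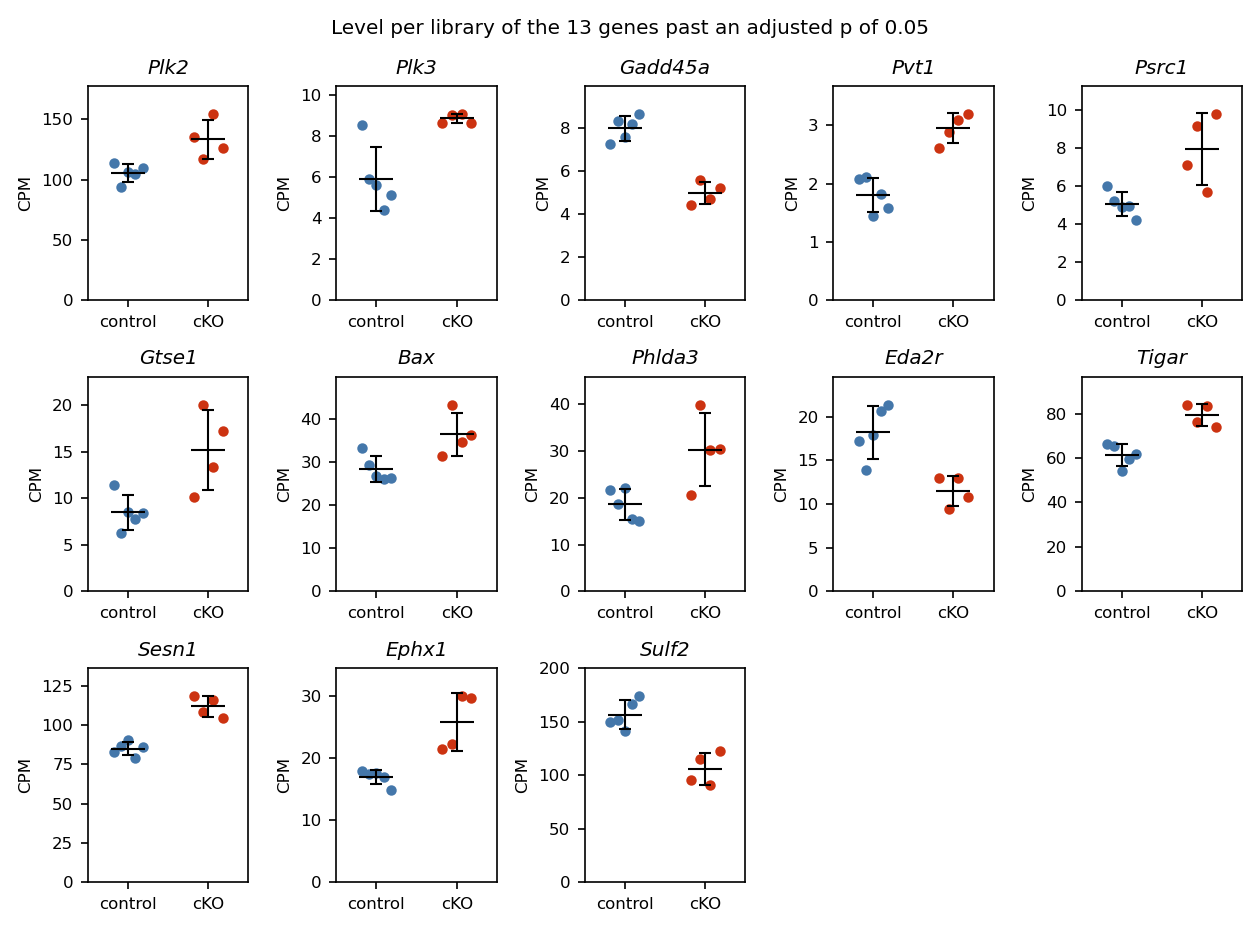
CPM of the 13 genes past an adjusted p of 0.05, 1 point per library, with the mean and SD in black for 5 control (blue) and 4 cKO (red) libraries, axes from 0. The groups do not overlap for 9 of the 13 and overlap for Psrc1, Gtse1, Bax and Phlda3.

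In the death group, Phlda3 and Bax rose and Eda2r fell. Phlda3 (ENSMUSG00000041801, chromosome 1, 135766119 to 135769136), which encodes an inhibitor of AKT membrane binding, was at 21.6, 18.7, 22, 15.5 and 15.1 CPM across control replicates 1 to 5 and at 20.6, 39.8, 30.1 and 30.5 CPM across cKO replicates 1 to 4. cKO replicate 1 lay within the control range and the other 3 above it, and the rise was 1.63-fold (log2 0.70 ± 0.18, SE, adjusted p = 0.0192 in edgeR). It did not pass without control replicate 5 or without cKO replicate 2 (largest adjusted p = 0.0524). Bax, the pore-forming protein of mitochondrial apoptosis, was at 33.3, 29.3, 26.9, 26.1 and 26.4 CPM in control and 31.6, 43.4, 34.7 and 36.5 CPM over the cKO replicates. The groups overlapped at control replicate 1 and cKO replicate 1, and the 1.29-fold rise (log2 0.36 ± 0.10, SE, adjusted p = 0.0297 in edgeR) passed in 3 of the 9 fits without a library, those without control replicate 1, control replicate 2 or cKO replicate 1.

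Eda2r (ENSMUSG00000034457, chromosome X, 97333840 to 97377216), a death receptor of the tumour necrosis factor receptor family, was at 17.2, 13.9, 17.9, 20.7 and 21.3 CPM across control replicates 1 to 5 and at 12.9, 9.41, 12.9 and 10.8 CPM across cKO replicates 1 to 4. All cKO libraries lay below all controls, at 0.633 times the control level (log2 -0.66 ± 0.14, SE, adjusted p = 0.00725 in edgeR), and it passed in all 9 fits without a library, under 1.5-fold in the fit without cKO replicate 2 (log2 -0.57). The 2 other death receptors did not pass. Fas differed by log2 -0.07 ± 0.16 (SE, adjusted p = 0.804 in edgeR). Tnfrsf10b, the mouse TRAIL receptor, was at 8.70, 19.0, 7.78, 20.1 and 14.1 CPM in control and 9.92, 13.6, 8.43 and 20.4 CPM over the cKO replicates. Its levels differed more than 2-fold between replicates of each group, and the SE of 0.36 on its log2 fold change of -0.09 was the widest of the 34 genes.

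The BH3-only genes Bbc3 and Pmaip1 were low and did not pass. Bbc3, which encodes PUMA, was at 4.18, 3.88, 2.41, 2.67 and 3.20 CPM in control and 3.30, 6.84, 4.37 and 3.68 CPM over the cKO replicates, with cKO replicate 2 apart from the rest (log2 0.48 ± 0.23, SE, adjusted p = 0.2 in edgeR). Pmaip1, which encodes NOXA, was at 0.361, 0.608, 0.693, 0.661 and 0.356 CPM in control and 0.684, 0.795, 0.927 and 1.21 CPM over the cKO replicates (log2 0.75 ± 0.29, SE, adjusted p = 0.102 in edgeR). With 11 to 50 counts per library, the fold change of Pmaip1 is among the least precise. Perp, a membrane protein of desmosomes, Ei24, an endoplasmic reticulum protein, Aen, a nuclease, and Trp53inp1, a p53 cofactor, had log2 fold changes of 0.04, -0.16, 0.18 and 0.12, with adjusted p from 0.131 to 0.781 by edgeR.

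With genotype as the only term, no repair gene passed in edgeR. Xpc, which recognises lesions in nucleotide excision repair, was at 18.6, 18.3, 18.1, 20.4 and 20.1 CPM in control and 21.3, 23.4, 22.7 and 21.5 CPM over the cKO replicates. Every cKO library lay above every control, but the gene missed the threshold by edgeR (log2 0.22 ± 0.07, SE, adjusted p = 0.0625) and passed by DESeq2 (adjusted p = 0.0333). Ddb2, which acts in the same pathway, differed by log2 -0.28 ± 0.11 (SE, adjusted p = 0.0979 in edgeR), and 652 bases of its exons are shared with Acp2 on the opposite strand. Ddb2 passed once the library sets were in the model (log2 -0.33, adjusted p = 0.0455 in edgeR). Ercc5, an endonuclease of that pathway, Rrm2b, the p53-inducible subunit of ribonucleotide reductase, and Polk, a translesion polymerase, had log2 fold changes of -0.13, -0.18 and -0.00, with adjusted p from 0.268 to 0.985 by edgeR.

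Among the enzymes, 5 of 6 genes separated the groups without overlap, beside 16.7% of all genes. Sesn1 (ENSMUSG00000038332, chromosome 10, 41809935 to 41908424), which encodes sestrin 1, a leucine-responsive inhibitor of mTORC1, was at 83.0, 86.7, 90.2, 79.0 and 86.2 CPM across control replicates 1 to 5 and at 118, 108, 116 and 104 CPM across cKO replicates 1 to 4. The rise was 1.31-fold with a small spread (log2 0.39 ± 0.06, SE), and its adjusted p of 0.00106 in the quasi-likelihood test of edgeR was the lowest of the 34 genes. Tigar, a bisphosphatase that lowers glycolytic flux, was at 66.3, 65.5, 54.1, 59.4 and 61.6 CPM in control and 83.9, 76.4, 83.5 and 74.1 CPM over the cKO replicates. It rose 1.29-fold (log2 0.37 ± 0.07, SE, adjusted p = 0.00505 in edgeR). Both genes passed in all 9 fits without a library, and neither reached 1.5-fold.

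Ephx1 (ENSMUSG00000038776, chromosome 1, 180976210 to 181020904), the microsomal epoxide hydrolase, was at 17.9, 17.4, 17.6, 17.0 and 14.9 CPM in control and 21.4, 22.2, 30.0 and 29.6 CPM over the cKO replicates. All cKO libraries lay above all controls, in 2 pairs of levels, and the rise was 1.52-fold (log2 0.61 ± 0.11, SE, adjusted p = 0.00354 in edgeR). It passed in all 9 fits without a library, but lay under 1.5-fold without control replicate 5 (log2 0.56), cKO replicate 3 (0.53) or cKO replicate 4 (0.53). Ephx1 also lay under 1.5-fold with Xist level as a term (0.57), with the replicate number as a block (0.546) and within the Rps3a3-low libraries (0.47, adjusted p = 0.152 in edgeR). Dcxr, a xylulose and dicarbonyl reductase, was at 2.11, 1.62, 1.69, 0.944 and 1.52 CPM in control and 2.46, 2.70, 2.43 and 2.4 CPM over the cKO replicates. Its groups did not overlap, but it missed the threshold by edgeR (log2 0.66 ± 0.21, SE, adjusted p = 0.0518) and passed by DESeq2 (adjusted p = 0.0198). Sulf2, a secreted sulfatase that trims heparan sulfate, was at 150, 152, 141, 166 and 174 CPM in control and 95.4, 116, 91.3 and 122 CPM over the cKO replicates. It fell without overlap to 0.677 times the control level (log2 -0.56 ± 0.10, SE, adjusted p = 0.00197 in edgeR), and passed in all 9 fits without a library. Its exons share 154 bases with Ncoa3 on the opposite strand, with the same limit as for Gadd45a. Abhd4, a lipase of N-acyl phospholipids, did not pass (log2 -0.08 ± 0.08, SE, adjusted p = 0.555 in edgeR).

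Levels in control ventricles, as CPM per kilobase of exon, ranged from 0.196 to 181. Perp, at the top, and Ccng1 at 143 stood far above the rest, followed by Ei24 at 30.0, Abhd4 at 27.9, Btg2 and Sulf2 at 26.7, Plk2 at 23.5 and Sesn1 at 21.4. The lowest were Pmaip1, Pvt1 at 0.258, Dcxr at 1.38, Psrc1 at 1.51 and Bbc3 at 1.54. None of the 4 most abundant members by this measure passed the edgeR test, nor did Btg2, but Sulf2, Plk2 and Sesn1 did. Of the lowest, Pvt1 and Psrc1 were called, and Pmaip1, Dcxr and Bbc3 did not pass.

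The changes had the same sign in both library sets for 31 of the 34 members, and for all 13 that passed. Those 13 were picked on these same libraries, which favours agreement, and the share over all genes is not given here. Within the Rps3a3-low set (3 cKO over 2 control libraries) and the Rps3a3-high set (1 over 3), the log2 ratios of mean CPM were -0.66 and -0.65 for Gadd45a, 0.71 and 1.06 for Gtse1, and 0.58 and 0.80 for Phlda3. Sesn1 stood at 0.43 and 0.29 and Eda2r at -0.40 and -0.89. The ratio was larger in the Rps3a3-high set for Psrc1, at 0.38 and 1.06, for Pvt1, at 0.45 and 0.98, and for Plk3, at 0.31 and 0.78. That set has 1 cKO library, so the difference between the sets was not tested. Tnfrsf10b was the member with the widest opposite ratios, at -0.38 and 0.55. When the libraries of the Rps3a3-low set were fitted alone, 2 members passed an adjusted p of 0.05 by edgeR, Sesn1 and Sulf2, and none was called.

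**Figure D5:**
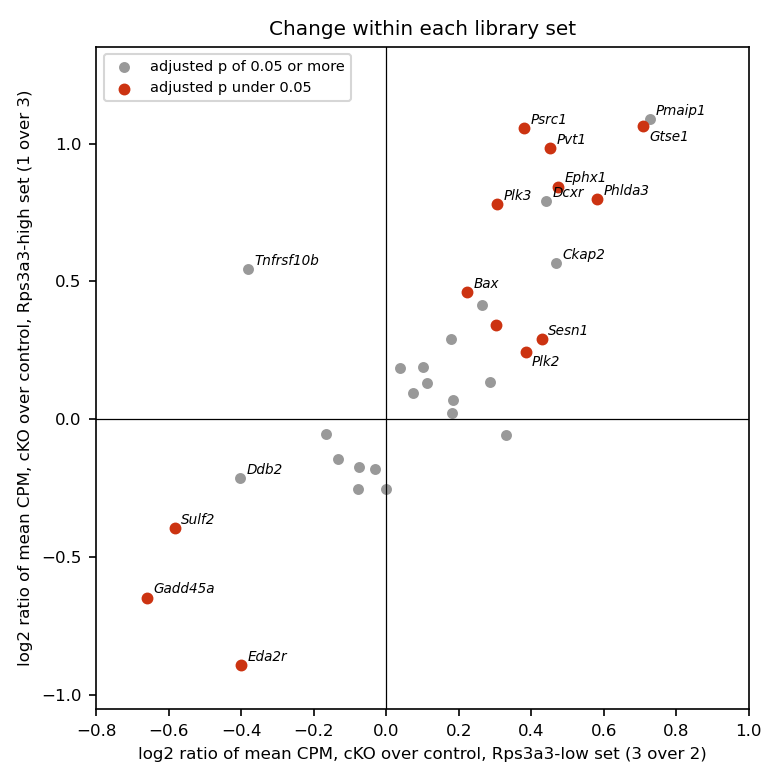
Log2 ratio of mean CPM, cKO over control, of each of the 34 genes in the Rps3a3-low set (x axis, 3 cKO over 2 control libraries) and in the Rps3a3-high set (y axis, 1 over 3), red where the adjusted p over all 9 libraries was under 0.05. All 13 red points lie in the quadrants where both ratios have the same sign, and they were picked on these same libraries.

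Among 30 other p53 targets listed, 6 rose and 2 fell at an adjusted p under 0.05 (26.7%, beside 16.3% of all genes), and 4 were called (13.3%, beside 6.72%), all higher. Gdf15, a secreted stress cytokine, was at 0.993, 0.492, 0.194, 0.440 and 0.517 CPM across control replicates 1 to 5 and at 1.43, 4.06, 1.62 and 2.74 CPM across cKO replicates 1 to 4. All cKO libraries lay above all controls, with a 4.67-fold rise (log2 2.22 ± 0.41, SE, adjusted p = 0.0035 in edgeR). Cdkn1a, which encodes the cyclin-dependent kinase inhibitor p21 and is the canonical arrest gene of p53, was at 53.9, 35.4, 48.5, 46.2 and 46.6 CPM in control and 66.3, 68.2, 70.9 and 74.3 CPM over the cKO replicates. It rose 1.52-fold without overlap (log2 0.60 ± 0.10, SE, adjusted p = 0.00176 in edgeR). Bid, a BH3-only protein, rose 2.02-fold (adjusted p = 0.0101 in edgeR), and Igfbp3, which binds insulin-like growth factors, rose 1.48-fold (adjusted p = 0.00505 in edgeR). The 2 that fell, Prkab1 and Kitl, are named after their values were seen, with log2 fold changes of -0.55 and -0.42.

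Markers of other cells and stress genes are given beside these changes. Of 8 fibroblast markers 4 (Col1a1, Col1a2, Tcf21 and Postn) rose, beside 8.25% of all genes, with log2 fold changes from 0.33 to 0.52. The other 4, Col3a1, Pdgfra, Dcn and Lum, did not pass, with log2 fold changes from -0.045 to 0.138. The 8 summed to 6923 to 8213 CPM in control and 8559 to 9507 CPM in cKO libraries. In 3 lists 1 marker each fell, Pln of 8 cardiomyocyte markers (log2 -0.45), Tek of 8 endothelial markers (-0.28) and Wt1 of 5 epicardial markers (-0.40). Of the 6 mural, 8 macrophage, 5 lymphocyte and 7 erythroid markers tested none passed in the quasi-likelihood test of edgeR. At an unadjusted p under 0.05 there were 2, 1, 0 and 2 of them, and DESeq2 passed 0, 1, 0 and 1. Macrophage markers summed to 108 to 182 CPM in control and 130 to 237 CPM in cKO libraries, with all 8 log2 fold changes above 0. Erythroid markers summed to 486 to 936 CPM in control and 740 to 1145 CPM in cKO libraries, with all 7 above 0. Of 9 integrated stress response genes tested, 2 passed by edgeR (22.2%, beside 16.3% of all genes), Atf5 and Mthfd2, which rose with log2 fold changes of 0.42 and 0.44. DESeq2 passed 4 of the list, 3 of them higher. Chac1, named after its values were seen, had the largest difference of the list, in the opposite direction (log2 -1.10 ± 0.35, SE, adjusted p = 0.0521 in edgeR). The part of these cells and of this response in the changes of the p53 targets was not tested.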

How the data were processed

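Poly(A) RNA of 9 libraries of P7 ventricles was measured by stranded RNA sequencing. Raw counts per gene were deposited by the authors as 1 table, with no normalization. The submitters' processing notes name the genome mm10, STAR 2.4.2a and HTSeq 0.6.1, and the strand setting of the counting is not given in the sources used here. Groups were taken from the labels, which number replicates without saying how animals were sampled, so p-values measure the spread between these libraries. Symbols and positions came from GENCODE M21 (GRCm38), in which 36345 of 38293 identifiers were found.

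The counts were tested with edgeR 4.0.16 in R 4.3.3, by the quasi-likelihood F test with robust fitting, TMM scaling, filterByExpr at a minimum count of 10 and genotype as the only term. This left 15318 genes, over which p-values were adjusted by Benjamini and Hochberg. A gene passed at an adjusted p under 0.05 and was called when its fold change was over 1.5 as well. SE was the log2 fold change over the root of F. CPM is counts per 1e6 of the TMM-scaled library total. The script was tested on simulated data. The study's test, DESeq2 (version 1.42.0 here), was an alternative, as were RLE scaling, 2 other filters on low counts, each library left out, the replicate number as a block, the library sets, and Xist level as a term. The within-set ratios were chosen after seeing the data.

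The members and gene lists were chosen with earlier results of these data known. All 34 members were named, and of other lists up to 5 genes that passed, by size of log2 fold change, with Mdm4, Cdkn1a and Arid1a. The result of 1 such gene is not reported here. Promoter windows came from RefSeq on GRCm38.p6, where a unit of 10 bases was matched on paired sites of 20.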

Additional observations from a re-analysis of the deposited data

Results flagged for a closer look

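In the 68 groups formed by the 34 genes and 2 genotypes, 2 held a library far from the others of its group, where chance gives about 1 in 20. Zmat3 was at 39.5 CPM in cKO replicate 4, above 30.4 to 31.0 CPM in the other 3 cKO libraries. Ephx1 was at 14.9 CPM in control replicate 5, below 17.0 to 17.9 CPM in the other 4 controls.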

How the results depend on the processing

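Over the alternatives that keep all 9 libraries, 269 of 286 values of the 41 genes examined kept their direction and side of the threshold, 6 no longer passed, 7 newly passed and 4 changed sign. None of these values changed side or sign under RLE scaling, no filter on low counts or Xist level as a term. With the Rps3a3-low libraries alone, which leave 5 of 9 libraries, 16 of the 41 genes no longer passed and 2 changed sign, 0 members were called and 2 passed an adjusted p of 0.05, 2 other p53 pathway genes passed, and 620 of all genes were called. With the replicate number as a block, 2 members were called and 7 passed, and Plk3, Pvt1, Psrc1, Gtse1, Bax and Phlda3 did not. The numbers did not pair the libraries, since correlations of same-numbered deviations were -0.05, 0.07, -0.01 and 0.30 and no cKO library correlated best with its own number. When each library was left out in turn, the count of members called ranged from 4 to 9, with 4 without control replicate 5 (the cause was not tested).

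Some log2 fold changes of genes that did not pass changed sign. Polk had log2 fold changes of 0.003 with a filter at 1 CPM, 0.053 with the block, 0.12 with the library set as a term and 0.18 in the Rps3a3-low libraries, and Mdm4 had 0.00 with the set term and 0.12 in those libraries. Leaving out a library moved Polk from -0.068 to 0.050, Fas from -0.159 to 0.005, Tnfrsf10b from -0.388 to 0.082 and Perp from -0.027 to 0.104.

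Depth limits Pmaip1, Pvt1 and Dcxr most, and 4 or 5 libraries a group limit all fold changes. Levels come from whole ventricles and no protein was measured.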

Other observations

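The median deviation of the 34 genes from their 9-library means, on the log2 scale, lay between -0.08 and -0.03 in the 5 control libraries and was 0.02, 0.05, 0.11 and 0.10 in cKO replicates 1 to 4. The 34 include the 13 that passed on these same libraries, and this median over all genes is not given here. Of the 10 genes that rose, 5 had their lowest cKO level in cKO replicate 1, among them Gtse1, Bax and Phlda3, where that library lay within the control range. cKO replicate 2 held the highest level of all 9 libraries for 8 of the 34 genes and the lowest for another 8.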
